A study of Cricetulus griseus with 10 samples.

Results

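Late adaptation of CHO-K1 cells to suspension growth is described here by setting the libraries of passages 6 and 10 (P6 and P10, called late) against those of passages 2 and 4 (P2 and P4, called early). CHO-K1 is an established line from Chinese hamster ovary. The labels give it as wild type in all samples, and all were taken while the cells were adapted in the medium SFM4CHO. The late side held 4 libraries, 2 of P6 and 2 of P10, and the early side also 4, 2 of P2 and 2 of P4, which makes 8 of the 10 libraries of the series. The other 2 are of passage 0 (P0) and entered only the filter on low values and, where stated, a description. The labels give the same line, genotype and medium for all 8 libraries and differ between them only in passage. Nothing in them states that duplicates are separate cultures. The p-values below therefore describe the spread among these libraries, part of which may be technical. Of 25156 features in the deposited table, 13521 had a mean of at least 10 normalised reads over the 10 libraries and were tested; the features nearest to that limit had means of 10.0053 and 9.99929.

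CHO cells normally grow attached to a surface on which they deposit matrix, and integrins carry signals from that matrix to the actin cytoskeleton and to growth pathways. In suspension culture without serum this anchorage is lost, and cells that go on dividing must do so with fewer of these cues. Collagens, laminins and fibronectin form the matrix, matrix metalloproteinases and sulfatases remodel it, and cyclins, condensins and spindle proteins carry cells through division.

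The late libraries were less alike than the early ones. Late libraries held 13678656 and 8394219 reads at P6 and 12819126 and 16599495 at P10, and the early libraries held between 10399192 and 12465671. Across the tested features, log2 values of the duplicates correlated at 0.956 for P6 and 0.930 for P10, against 0.989 for P2 and 0.992 for P4. P10 replicate 2 correlated better with P4 replicate 1 (0.979) than with its own duplicate. P6 replicate 2 and P10 replicate 1 correlated at 0.977, better than either did with its own duplicate. Whether the reads of the feature named Dym came from the mRNA of that gene was not tested. Dym held 4.32% and 1.15% of normalised reads at P6 and 1.41% and 10.7% at P10, against 8.53 to 12.7% in the early libraries. An exact permutation test of this share gave a two-sided p of 0.0571, where 0.0286 is the smallest that 4 against 4 libraries can give. In the fit over all features its log2 difference was -2.07 (SE 1.01) and did not pass (adjusted p = 0.193). The values were 462625 and 108596 normalised reads at P6 and 152825 and 1386710.0 at P10, against 990795 and 1382178 at P2 and 1554623 and 1540593 at P4. Cytosolic ribosomal proteins held 2.15 to 5.19% in late and 3.24 to 3.86% in early libraries. The part of P10 replicate 2, or of Dym, in the results below was not tested beyond leaving that library out.

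**Figure D1:**
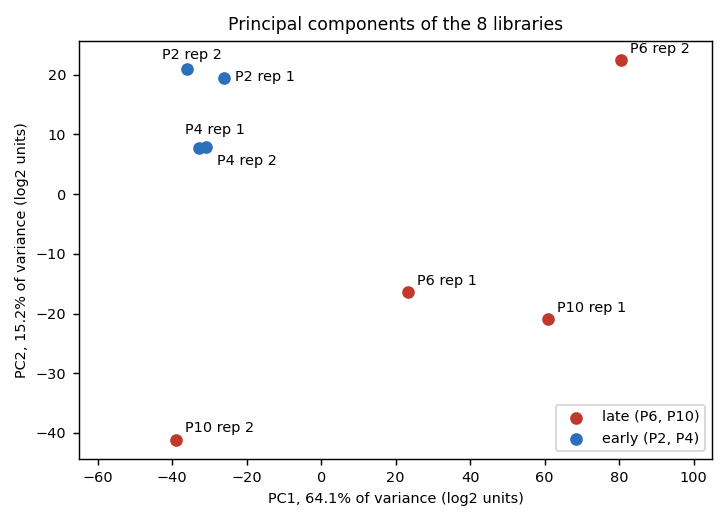
First and second principal components of log2(normalised reads + 1) over the 13521 tested features, 1 point per library, late libraries in red and early ones in blue; both axes are in log2 units. The early libraries lie together at the left (first component between -36.0 and -26.1), 3 late libraries lie to their right (23.3 to 80.4), and P10 replicate 2 lies at -39.0 on the first component and lowest on the second.

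In limma with Benjamini-Hochberg adjustment over all 13521 features, 824 (6.09%) passed at 0.05, of which 504 (3.73%) were higher and 320 (2.37%) lower in late libraries. The median log2 difference was 0.89 among the features called higher and -1.10 among those called lower, against -0.01 over all tested features. Of the 824, 817 had no overlap between the 4 late and the 4 early libraries, a separation found for 18.1% of all tested features (10.2% with late above and 7.88% with late below). Of the 504 called higher, the late library nearest to the early ones was P10 replicate 2 for 355 features (70.4%), and P10 replicate 1 was the farthest for 407 (80.8%). Of the 320 called lower, P10 replicate 2 was nearest for 163 (50.9%) and P10 replicate 1 farthest for 196 (61.2%).

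The number of calls depended on which libraries entered. The lowest adjusted p was 0.0203, while 4148 features had an unadjusted p under 0.05. Without P10 replicate 2, 6003 features passed, among them all 824. Without P6 replicate 1, 102 passed (36 higher and 66 lower). Without P6 replicate 2, 506 passed (321 higher and 185 lower), and without P10 replicate 1, 56 (32 higher and 24 lower). Counts in the lists below are read against these numbers of 13521 features. Without any 1 of the 4 early libraries none passed (unadjusted p under 0.05 for 2914 to 3309 features), and the 824 then had adjusted p of 0.0904 to 0.162. Over the 824, the median absolute change of the log2 difference was 0.03 without P2 replicate 1, 0.04 without P2 replicate 2 and 0.03 without either P4 library. It was larger without a late library, at 0.057 and 0.063 for P6 replicates 1 and 2 and 0.126 and 0.117 for P10 replicates 1 and 2. All 824 kept their direction in the 8 fits that left out 1 library, and also when late was P6 alone or P10 alone. For the 817 without overlap this had to be so, since no choice among separated libraries can turn the sign. Of all calls 61.2% were higher; with upper quartile scaling 808 passed, 356 higher and 452 lower (44.1% higher), and the median over all features was -0.06. The balance between rises and falls therefore depends on the scaling. Of the called genes named below, Agt, Cgnl1, Mmp11 and Phactr1 missed the threshold in edgeR's quasi-likelihood test (adjusted p 0.0521 to 0.0618). With upper quartile scaling Cgnl1, Mterfd1, Cenpe, Rpl4, Ndufa6 and Skil missed it (adjusted p 0.0507 to 0.0605).

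By a rule that asks for a mean of 50 normalised reads and no overlap, the 12 largest rises were in Ccdc34, Prss36, Ube2c, Cdkn3, Smc2, Prc1, Nrg4, Cgnl1, Bmp5, Ccna2, Mterfd1 and Ccdc152. Of these, Ube2c, Cdkn3, Smc2, Prc1 and Ccna2 act in cell division, and Nrg4 and Bmp5 are secreted ligands. Ccdc34, a coiled-coil protein, had 1567 and 3070.4 normalised reads at P6 and 4789 and 921 at P10, against 573 and 470.5 at P2 and 644 and 589 at P4 (log2 difference 1.92, SE 0.42, adjusted p = 0.0372). P10 replicate 2 was the lowest of its late libraries and still above all early ones. In the 8 fits that left out 1 library, Ccdc34 passed only without P10 replicate 2, as did Cgnl1, Bmp5 and Ccdc152. Cdkn3 and Ccna2 passed in 4 of these fits. Ube2c, the ubiquitin-conjugating enzyme that works with the anaphase-promoting complex, had 1100.3 and 1521 normalised reads at P6 and 2180.4 and 702 at P10, against 334 and 390.0 at P2 and 386 and 437 at P4. Cdkn3, a phosphatase that acts on cyclin-dependent kinases, had 3207 and 3749 normalised reads at P6 and 4848 and 2378 at P10, against 1154 and 1037 at P2 and 1270.5 and 1265 at P4. Their log2 differences were 1.71 (SE 0.29) and 1.54 (SE 0.20), with adjusted p of 0.0302 and 0.0203. In both genes the early libraries lay close together and the late ones spread upwards from P10 replicate 2 to P10 replicate 1.

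Smc2, the core ATPase of condensin, had 8589 and 11141 normalised reads at P6 and 16149.8 and 5773 at P10, against 4015 and 3261 at P2 and 3452 and 3262 at P4. Prc1, which bundles microtubules of the central spindle, had 7171 and 9791 normalised reads at P6 and 12849 and 5684 at P10, against 3027 and 2767 at P2 and 3270.2 and 3181 at P4. They rose by 1.48 (SE 0.28) and 1.47 (SE 0.24) on the log2 scale. Both had P0 values close to or below the early ones, at 3117 and 3132 for Smc2 and 2087 and 2047 for Prc1. Nrg4, a neuregulin ligand of the ErbB4 receptor, had 603 and 821 normalised reads at P6 and 908 and 401 at P10, against 231 and 187 at P2 and 286 and 258 at P4 (log2 difference 1.45, SE 0.25, adjusted p = 0.0302). With 37.5 and 25.9 normalised reads at P0, Nrg4 stood higher at each later group of passages.

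Cgnl1, a junctional protein of the cingulin family, averaged 968 ± 142 normalised reads in late libraries, against 402 ± 224 in early ones (SD, n = 4 each), and its P4 libraries (597 and 596) lay well above its P2 libraries (211 and 203). Bmp5, a bone morphogenetic protein, averaged 189.9 ± 43.7 normalised reads in late libraries, against 71.6 ± 27.1 in early ones, also with P4 above P2. Prss36, a secreted serine protease, averaged 290.1 ± 126 normalised reads in late libraries, against 73.4 ± 23.6 in early ones. The log2 differences were 1.45 (SE 0.37) for Cgnl1, 1.44 (SE 0.29) for Bmp5 and 1.91 (SE 0.35) for Prss36. Mterfd1, of the mitochondrial transcription termination factor family, and Ccdc152 differed by 1.44 (SE 0.34) and 1.43 (SE 0.34), and in both P10 replicate 2 (455 for Mterfd1 and 75.7 for Ccdc152) stood close to the highest early library (380.1 for Mterfd1 and 71.1 for Ccdc152).

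**Figure D2:**
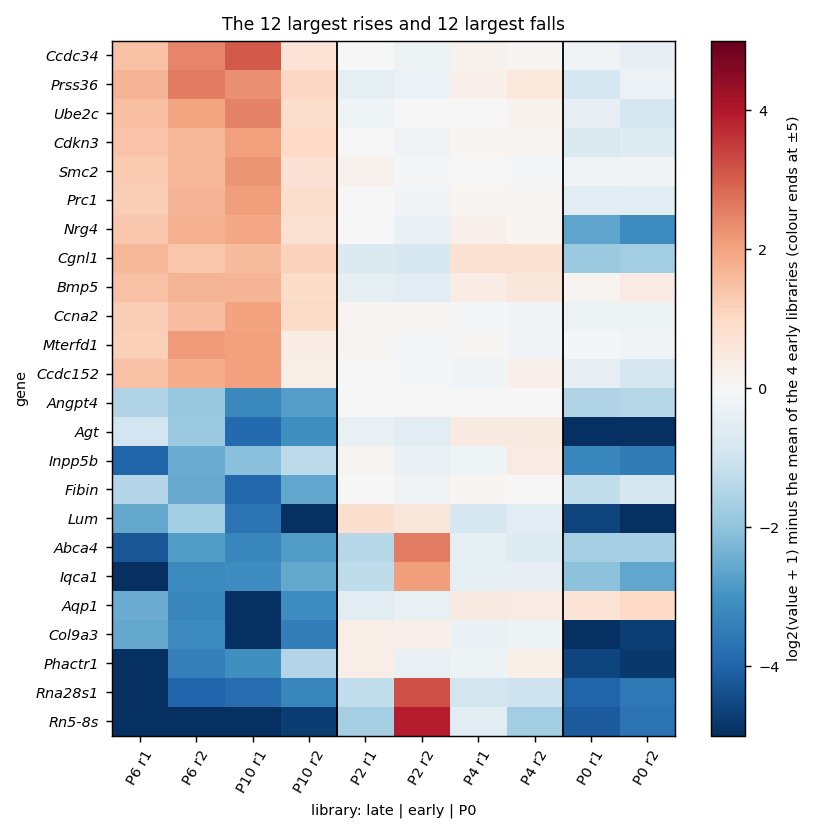
Log2(normalised reads + 1) of the 12 largest rises and the 12 largest falls, each minus the mean of the 4 early libraries, in columns for the late libraries, the early libraries and P0; red is higher and blue lower, and the colour scale ends at ±5. The late columns are all red above and all blue below, P10 replicate 2 is the palest of the late columns among the rises, and P2 replicate 2 is red in Abca4, Iqca1, Rna28s1 and Rn5-8s.

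The 12 largest falls by the same rule were in Rn5-8s, Rna28s1, Phactr1, Col9a3, Aqp1, Iqca1, Abca4, Lum, Fibin, Inpp5b, Agt and Angpt4. Col9a3 and Lum encode matrix proteins, and Fibin, Agt and Angpt4 encode secreted proteins. Col9a3, a chain of collagen IX, fell to 147 and 96.6 normalised reads at P6 and 22.8 and 80.4 at P10, against 1098 and 1061 at P2 and 698 and 747 at P4 (log2 difference -3.60, SE 0.47, adjusted p = 0.0203). Lum encodes lumican, a proteoglycan that binds collagen fibrils. It fell to 21.1 and 38.2 normalised reads at P6 and 9.28 and 3.12 at P10, against 227 and 196 at P2 and 73.2 and 88.6 at P4 (log2 difference -3.25, SE 0.65, adjusted p = 0.0306). Both were low at P0, at 22.6 and 33.1 for Col9a3 and 4.36 and 1.44 for Lum, so their values stood highest in the early libraries.

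Aqp1, a water channel, fell to 68.9 and 39.3 normalised reads at P6 and 8.44 and 44.5 at P10, against 273 and 304 at P2 and 536 and 512 at P4 (log2 difference -3.55, SE 0.54, adjusted p = 0.029). At P0 it had 625 and 773, so its late values were below those of all other libraries. Its log2 difference from the early libraries was -2.88 for P6 alone and -4.23 for P10 alone. Agt encodes angiotensinogen, the precursor of the angiotensin peptides. It fell to 549 and 289 normalised reads at P6 and 70.04 and 124 at P10, against 818 and 734 at P2 and 1448 and 1452 at P4 (log2 difference -2.45, SE 0.55, adjusted p = 0.0388), with no read in either P0 library. Its log2 difference was -1.41 for P6 alone and -3.49 for P10 alone. Angpt4, a ligand of the Tek receptor, fell to 743 and 565 normalised reads at P6 and 229.5 and 311 at P10, against 2117 and 2069 at P2 and 2146 and 2169 at P4. The log2 difference was -2.35 (SE 0.32) and adjusted p 0.0211. The 4 early Angpt4 values lay within a narrow band, and all late values lay far under it.

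Fibin, a secreted factor first described in zebrafish fin development, fell to 70.4 and 33.7 normalised reads at P6 and 11.8 and 31.2 at P10, against 199 and 174 at P2 and 213 and 200.5 at P4 (log2 difference -2.63, SE 0.42, adjusted p = 0.0302). Phactr1, a regulator of protein phosphatase 1 and actin, fell to 39.1 and 519 normalised reads at P6 and 664 and 2019 at P10, against 6978 and 4329 at P2 and 4709.9 and 6967 at P4. Inpp5b, an inositol polyphosphate 5-phosphatase, fell to 1141 and 3259 normalised reads at P6 and 4336 and 7369 at P10, against 20425 and 14497 at P2 and 15833 and 24505 at P4. The falls were -3.78 and -2.48 on the log2 scale. In Phactr1 and Inpp5b the order within late differed from that of Fibin and Aqp1, since P6 replicate 1 was the lowest late library and P10 replicate 2 the highest.

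The remaining 4 large falls shared 1 library. Rna28s1, named for 28S ribosomal RNA, had 571 and 1630.1 normalised reads at P6 and 1856 and 2689 at P10, against 11001 and 239094 at P2 and 13514 and 12463 at P4. Rn5-8s, named for 5.8S ribosomal RNA, had 21.1 and 21.3 normalised reads at P6 and 27.8 and 226 at P10, against 1914 and 91613 at P2 and 4148 and 1819 at P4. Both were called lower, with log2 differences of -4.13 (SE 0.92) and -7.15 (SE 1.21). In both, P2 replicate 2 stood far above the other early libraries. Iqca1, an AAA-domain protein, had 49597 in P2 replicate 2 and 4804, 8546 and 8757 in the other early libraries. Abca4, a lipid transporter known from the retina, had 130376 in P2 replicate 2 and 8277, 15479.5 and 13937 in the others. The late values were 343 to 1938 for Iqca1 and 1117 to 3174 for Abca4. In the 8 fits that left out 1 library, Abca4 passed only without P10 replicate 2. Of the falls described above, Col9a3, Aqp1, Fibin and Angpt4 passed in 4 of these fits and Agt in 3. Ribosomal RNA was removed by a kit before sequencing per the labels' protocols, so the level of these features also depends on that step, whose part was not tested.

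Genes of mitosis and the G2/M phase had the largest share of rises among the 41 lists. Of 36 tested, 15 rose (41.7%, against 3.73% of all tested features) and none fell, with a median log2 difference of 0.64. The 15 were Kif20a, Ccnb2, Nusap1, Ccna2, Prc1, Ttk, Ube2c, Anln, Pttg1, Bub1b, Ect2, Plk1, Ndc80, Cenpe and Kif2c. In 22 of the 36 all late libraries lay above all early ones, as in 10.2% of all tested features. A positive difference was found for 35, against 6654 of all 13521 tested features. The summed level of the list was 76115 to 116122 normalised reads in the 4 late libraries, against 46478 to 51093 in the 4 early ones. In bulk libraries a larger share of cells in these phases and more RNA per cell cannot be told apart.

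Kif20a, the mitotic kinesin of the central spindle, had 1961 and 2063 normalised reads at P6 and 2595 and 1661 at P10, against 921 and 842 at P2 and 927 and 895 at P4. Ccnb2, a B-type cyclin of mitotic entry, had 2751 and 2531 normalised reads at P6 and 3916 and 2464 at P10, against 1210.1 and 1267 at P2 and 1353 and 1387 at P4. Nusap1, a spindle microtubule protein, had 2630.2 and 2454 normalised reads at P6 and 3668 and 2298 at P10, against 1340.3 and 1176 at P2 and 1333 and 1221 at P4. The log2 differences were 1.19 (SE 0.15) for Kif20a, 1.14 (SE 0.16) for Ccnb2 and 1.10 (SE 0.16) for Nusap1, with adjusted p of 0.0203, 0.027 and 0.0275. In these genes P10 replicate 2 lay under the P6 libraries, and the lowest late value was well above the highest early one. Ccna2, cyclin A2, which acts in S phase and G2, had 3614 and 4441 normalised reads at P6 and 6275 and 2983 at P10, against 1693 and 1596 at P2 and 1491 and 1381 at P4 (log2 difference 1.44, SE 0.21, adjusted p = 0.0276). P0 values of Ccna2 (1273 and 1279) lay slightly below the early ones.

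Kinetochore and checkpoint genes were among the risers, named after their values were seen because they fall outside the 4 smallest p of the list. Bub1b, of the spindle checkpoint, averaged 1071 ± 166 normalised reads in late libraries, against 638 ± 54.3 in early ones, and the checkpoint kinase Ttk 1484 ± 472 normalised reads in late libraries, against 626 ± 55.6 in early ones. Ndc80, which attaches kinetochores to microtubules, averaged 2482 ± 1006 normalised reads in late libraries, against 1128 ± 85.1 in early ones, and the kinetochore motor Cenpe 4399 ± 1486 normalised reads in late libraries, against 2243 ± 186 in early ones. Plk1, the polo-like kinase, rose by 0.64 (SE 0.15) and Pttg1, securin, by 0.77 (SE 0.15) on the log2 scale, with P10 replicate 2 the highest late library in both. The list had 22 higher and 1 lower without P10 replicate 2, and 18 higher and 0 lower without P6 replicate 2. Without P6 replicate 1 the counts were 6 higher and 0 lower, and without P10 replicate 1 6 higher and 0 lower. Of all 13521 tested features, 36 were higher without P6 replicate 1 and 32 without P10 replicate 1. With any 1 early library left out none passed (adjusted p 0.0904 to 0.148). With P6 replicate 2 and P10 replicate 1 both left out, 16 rose, where 1.24% of all features did.

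**Figure D3:**
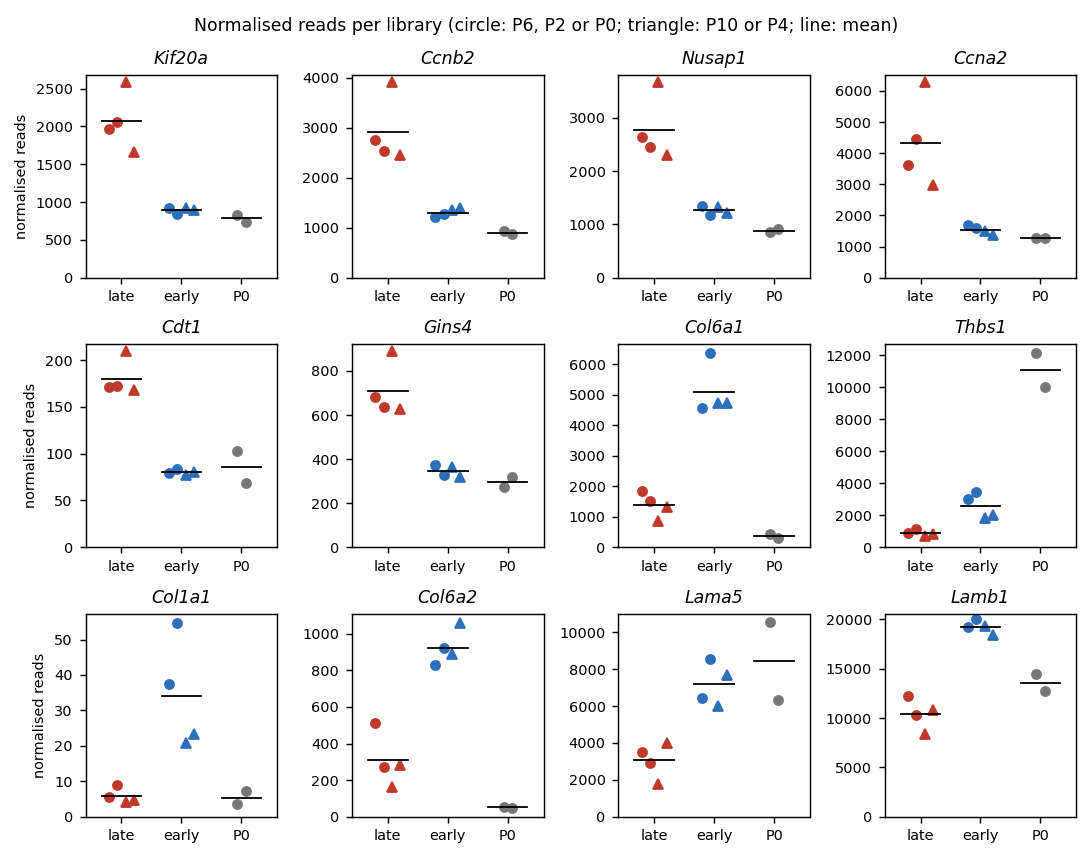
Normalised reads in each library for 6 genes of division and replication (Kif20a, Ccnb2, Nusap1, Ccna2, Cdt1, Gins4) and 6 matrix genes (Col6a1, Thbs1, Col1a1, Col6a2, Lama5, Lamb1), with late in red, early in blue and P0 in grey; circles are P6, P2 or P0, triangles P10 or P4, lines are means, and each axis starts at 0. Late and early points do not overlap in any panel, and Thbs1 is highest at P0 while Col6a1, Col6a2 and Col1a1 are highest in the early libraries.

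Of 44 tested genes of DNA replication and S phase, 6 rose (13.6%) and none fell, with a median of 0.30. Cdt1, which loads the replicative helicase at origins, had 171 and 172 normalised reads at P6 and 210.1 and 168 at P10, against 79.1 and 83.8 at P2 and 77.2 and 80.4 at P4. Gins4, a subunit of the active helicase, had 680.0 and 636 normalised reads at P6 and 891 and 629 at P10, against 375 and 326 at P2 and 362 and 321 at P4. Their log2 differences were 1.15 (SE 0.15) and 1.02 (SE 0.15), with adjusted p of 0.0203 and 0.027. Both had a narrow early band and a gap to all late libraries. Ccne2, cyclin E2 of the entry into S phase, averaged 98.1 ± 11.5 normalised reads in late libraries, against 45.1 ± 9.84 in early ones, and Pold2, a subunit of DNA polymerase delta, 1379.7 ± 179 normalised reads in late libraries, against 801 ± 99.9 in early ones. Outside the 4 smallest p, Rrm1, the large subunit of ribonucleotide reductase, and Orc6, of the origin recognition complex, also passed, with 0.72 (SE 0.16) and 0.81 (SE 0.19). Leaving out P10 replicate 2 gave 14 higher and 3 lower, and leaving out P6 replicate 2 gave 10 higher and 0 lower. The counts were 2 higher and 0 lower without P6 replicate 1 and 2 higher and 0 lower without P10 replicate 1. The called members had adjusted p of 0.0904 to 0.144 when any 1 early library was left out. Of all tested features, 21.2% passed as higher without P10 replicate 2 and 23.2% as lower, so such counts are read against those shares.

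Of 24 genes of ribosome biogenesis, 4 rose (16.7%), with a median of 0.13. Nolc1, a nucleolar chaperone, had 2098 and 1886 normalised reads at P6 and 2879 and 2061 at P10, against 1139 and 1232 at P2 and 1239 and 1282 at P4 (log2 difference 0.85, SE 0.15, adjusted p = 0.0302). Nop56 and Nop58, core proteins of box C/D small nucleolar ribonucleoproteins, rose by 0.72 (SE 0.15) and 0.67 (SE 0.16), and Gnl3, nucleostemin, by 0.90 (SE 0.19). In Nop58 and Gnl3 the other 3 late libraries lay close together and P10 replicate 1 stood above them. Of 64 cytosolic ribosomal protein genes, 2 rose (3.12%, near the share over all features), and the median was -0.32. These were Rpl12 with 4345 ± 723 normalised reads in late libraries, against 2354 ± 144 in early ones and Rpl4 with 5692 ± 1583 normalised reads in late libraries, against 3267 ± 159 in early ones. Ribosomal protein genes have many near-identical pseudogene copies, so the authors' counting could split their reads. Rpl38, another ribosomal protein, had 319 and 230.3 normalised reads at P6 and 239 and 1488 at P10, against 1012 and 1748 at P2 and 948 and 1128 at P4. These overlapped and it did not pass (adjusted p = 0.0918), whereas without P10 replicate 2 its adjusted p was 0.000178. Without that library 33 ribosomal protein genes were lower and 3 higher. Nolc1 passed without P10 replicate 1, and no called member of either list without P6 replicate 1 or any 1 early library (adjusted p for the last 0.0904 to 0.147).

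Of 19 enzymes of cholesterol synthesis, 5 rose (26.3%) and none fell, while the median over the list was 0.09. Nsdhl, which takes part in the removal of methyl groups from sterols, had 1280.3 and 2018 normalised reads at P6 and 1865 and 959 at P10, against 609 and 599 at P2 and 576 and 636 at P4. Idi1, the isomerase of the isoprenoid branch, had 5819 and 6111 normalised reads at P6 and 8386 and 5542 at P10, against 3819 and 3222 at P2 and 3524 and 3170.2 at P4. Their log2 differences were 1.28 (SE 0.22) and 0.90 (SE 0.17) (adjusted p = 0.0302 and 0.0302). Both were lowest at P0, at 276 and 270.2 for Nsdhl and 1026 and 1128 for Idi1. Fdft1, squalene synthase, rose by 0.61 (SE 0.13), the sterol desaturase Sc5d by 0.62 (SE 0.13) and Hsd17b7, a sterol ketoreductase outside the 4 smallest p, by 0.69 (SE 0.16). Hmgcs1, which makes HMG-CoA, had 4477 and 3061 normalised reads at P6 and 5091 and 7749 at P10, against 4498 and 4433 at P2 and 4769 and 4389 at P4 and did not pass; it is named after its values were seen. The list had 8 higher and 4 lower without P10 replicate 2, and 6 higher and 0 lower without P6 replicate 2. Without P6 replicate 1 the counts were 0 higher and 0 lower, and without P10 replicate 1 0 higher and 0 lower. Adjusted p of the called members was 0.0904 to 0.141 without any 1 early library.

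Among 15 genes of sterol sensing and LDL uptake, Abca1, the exporter of cholesterol to lipoproteins, passed (6.67%, against 2.37% called lower over all tested features). It fell to 4594 and 4316 normalised reads at P6 and 3185 and 4782 at P10, against 8684 and 8300.1 at P2 and 7399 and 7085 at P4 (log2 difference -0.91, SE 0.17, adjusted p = 0.0302), and the other 14 did not pass. The sterol sensors Insig1 and Insig2 differed by 0.40 (SE 0.15) and -0.36 (SE 0.12), and Nr1h3, the liver X receptor alpha, by -0.41 (SE 0.14). Of 14 genes of fatty acid uptake and lipid droplets, Fabp4 and Plin4 fell (14.3%). Fabp4, a fatty acid carrier of adipocytes, fell to 344 and 238 normalised reads at P6 and 141 and 130.3 at P10, against 771 and 644 at P2 and 1016 and 976 at P4. Plin4, a coat protein of lipid droplets, fell to 1496 and 1126 normalised reads at P6 and 1104 and 2070.4 at P10, against 3005 and 3246 at P2 and 3307 and 3852 at P4. The log2 differences were -2.08 (SE 0.30) and -1.25 (SE 0.21) (adjusted p = 0.027 and 0.0302). Fabp4 had only 19.2 and 20.1 at P0, and its late values lay between those of P0 and of the early passages. None of the 10 tested genes of fatty acid synthesis passed, with Fasn, fatty acid synthase, at -0.56 (SE 0.24) and the acyl-CoA synthetase Acsl3 at 0.31 (SE 0.13). Without any 1 early library Abca1, Fabp4 and Plin4 missed the threshold (adjusted p 0.0904 to 0.12), as they did without P10 replicate 1. Without P6 replicate 1, Fabp4 passed and the other two did not.

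Of 31 targets of the transcription factor NRF2 and other antioxidant genes, 4 rose (12.9%) and none fell, although the median was -0.18 and 19 had a negative difference. Gclc, Slc7a11 and Gsr, which act in glutathione supply, were among the 4. Gclc, the catalytic subunit of the enzyme that limits glutathione synthesis, had 1214 and 1207 normalised reads at P6 and 1420.1 and 972 at P10, against 760.2 and 709.6 at P2 and 737 and 749 at P4. Its log2 difference was 0.69 (SE 0.14) (adjusted p = 0.0305), and P10 replicate 2 was the late library nearest to the early ones. Slc7a11, the cystine transporter, rose by 0.87 (SE 0.20), and Gsr, glutathione reductase, by 0.68 (SE 0.15). At P0, Gclc, Slc7a11 and Gsr lay below all early libraries, with 652 and 628, 422 and 503 and 618 and 578. Leaving out P10 replicate 2 gave 8 higher and 13 lower, and leaving out P6 replicate 2 gave 3 higher and 0 lower. The counts were 0 higher and 0 lower without P6 replicate 1 and 0 higher and 0 lower without P10 replicate 1. With any 1 early library left out none passed (adjusted p 0.0904 to 0.143).

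Of 19 cytosolic and mitochondrial chaperones, Stip1 and Hsf1 rose (10.5%). Stip1, which links HSP70 to HSP90, had 3223 and 2854 normalised reads at P6 and 4214 and 3190.3 at P10, against 1860.0 and 1605 at P2 and 1877 and 1914 at P4 (log2 difference 0.88, SE 0.15, adjusted p = 0.0302), and Hsf1, the heat shock transcription factor, averaged 735 ± 49.9 normalised reads in late libraries, against 470.3 ± 35.8 in early ones. Of 29 nuclear genes of the respiratory chain, Ndufa10 and Ndufa6, both of complex I, rose by 0.98 (SE 0.19) and 0.68 (SE 0.17), which is 6.9% of the list against 3.73% of all tested features, and the list's median was -0.29. Ndufa1 of the same complex had 286 and 147 normalised reads at P6 and 199 and 511 at P10, against 574 and 531 at P2 and 605 and 439 at P4 and did not pass (adjusted p = 0.0739). Of 24 genes of glycolysis and lactate, Gapdh alone passed (4.17%), with 36388 and 31214 normalised reads at P6 and 27767 and 28324 at P10, against 14591 and 15526 at P2 and 18661 and 18525 at P4. Its log2 difference was 0.88 (SE 0.21), and since it has many processed pseudogenes its reads may be shared with copies. Of 13 hypoxia genes, Hif1a, the oxygen-regulated transcription factor, alone rose (7.69%). It had 5775 and 6367 normalised reads at P6 and 7209 and 3492 at P10, against 2513 and 2355 at P2 and 2996 and 2973 at P4. Its log2 difference was 1.03 (SE 0.22), and that of its paralogue Epas1, which did not pass, was -0.97 (SE 0.30). None of these 6 genes passed without P10 replicate 1, without P6 replicate 1 or without any 1 early library (adjusted p for the last 0.0904 to 0.155). Without P10 replicate 2 the balance was the other way for the respiratory chain, with 3 higher and 15 lower, and for glycolysis, with 1 higher and 10 lower; the chaperones then had 5 higher and 3 lower and the hypoxia genes 3 higher and 4 lower.

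Among the lists with at least 10 tested members, the interstitial matrix had the largest share of falls. Of 30 tested genes, 11 fell (36.7%, against 2.37% of all tested features) and none rose, with a median log2 difference of -0.71. The 11 were Col6a1, Thbs1, Col1a1, Col6a2, Lum, Fn1, Col3a1, Efemp2, Dcn, Thbs2 and Postn. In 14 of the 30 all late libraries lay below all early ones, as in 7.88% of all tested features. The summed level of the list was 39740.3 to 67128 normalised reads in the 4 late libraries, against 94279 to 97829 in the 4 early ones. RNA and not the deposited matrix was measured.

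Col6a1, a chain of the beaded-filament collagen VI, fell to 1845 and 1507 normalised reads at P6 and 873 and 1308 at P10, against 4575 and 6358 at P2 and 4717 and 4728 at P4. Col6a2, its partner chain, fell to 514 and 271 normalised reads at P6 and 163 and 284 at P10, against 830.0 and 921 at P2 and 888 and 1059 at P4. The log2 differences were -1.92 (SE 0.23) and -1.70 (SE 0.29) (adjusted p = 0.0203 and 0.0302). Both were lowest at P0, at 419.9 and 305 for Col6a1 and 54.9 and 50.3 for Col6a2, so the late values lay between P0 and the early passages. Col3a1, the fibrillar collagen III chain, fell to 25834 and 19401 normalised reads at P6 and 11851 and 17335 at P10, against 43931 and 41963 at P2 and 41328 and 42248 at P4. Its log2 difference was -1.24 (SE 0.27), and P0 had 11822 and 11119.6. Col1a1, of collagen I, fell to 5.48 and 8.99 normalised reads at P6 and 4.22 and 4.68 at P10, against 37.5 and 54.8 at P2 and 20.8 and 23.3 at P4. Its difference was -2.30 (SE 0.38), and the second chain Col1a2 had at most 3.37 in any of the 8 libraries.

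Thbs1, the matricellular thrombospondin 1, followed another course. It fell to 915 and 1132 normalised reads at P6 and 719 and 855 at P10, against 3043 and 3439.8 at P2 and 1857 and 2016 at P4. The log2 difference was -1.49 (SE 0.22) (adjusted p = 0.0284). P0 had 12125 and 10022, so each later group of passages stood lower. Fn1, fibronectin, the main ligand of integrin alpha5 beta1, fell to 2433 and 2797 normalised reads at P6 and 1344 and 1287 at P10, against 4712 and 4852 at P2 and 3599.7 and 4154 at P4. P0 had 7604 and 5351. The log2 difference was -1.21 (SE 0.26) over all late libraries, -0.72 for P6 alone and -1.71 for P10 alone. Outside the 4 smallest p of the list, Dcn, the proteoglycan decorin, averaged 3816 ± 771 normalised reads in late libraries, against 6698 ± 955 in early ones, and Postn, periostin, 101.05 ± 20.3 normalised reads in late libraries, against 436 ± 289 in early ones. Postn had 739 and 626 at P2 and 187 and 190.0 at P4, so the P4 libraries lay nearer to the late ones than to P2. Also outside these 4, Efemp2, an elastic fibre protein, and Thbs2, thrombospondin 2, fell by 1.07 and 1.15 on the log2 scale. The list had 1 higher and 15 lower without P10 replicate 2, and 0 higher and 9 lower without P6 replicate 2. Without P6 replicate 1 the counts were 0 higher and 3 lower, and without P10 replicate 1 0 higher and 2 lower. Of all 13521 tested features, 66 were lower without P6 replicate 1 and 24 without P10 replicate 1. The called members had adjusted p of 0.0904 to 0.147 when any 1 early library was left out. With P6 replicate 2 and P10 replicate 1 both left out, 8 fell, where 0.791% of all features did.

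Of 15 basement membrane genes, 5 fell (33.3%), with a median of -0.57, and all 5 were laminin chains. Laminins are trimers of an alpha, a beta and a gamma chain. Among the alpha chains, Lama5 fell to 3517 and 2907 normalised reads at P6 and 1768 and 4018 at P10, against 6429.8 and 8568 at P2 and 6012 and 7679.6 at P4 (log2 difference -1.28, SE 0.25, adjusted p = 0.0302), and Lama3, outside the 4 smallest p, averaged 441 ± 107 normalised reads in late libraries, against 794 ± 160.0 in early ones. Among the beta chains, Lamb1 fell to 12214 and 10295 normalised reads at P6 and 8351 and 10825 at P10, against 19269 and 20001 at P2 and 19299.9 and 18457 at P4 (log2 difference -0.90, SE 0.18, adjusted p = 0.0316) and Lamb2 averaged 1092 ± 327 normalised reads in late libraries, against 2058 ± 329 in early ones. The gamma chain Lamc1 averaged 4629.6 ± 557 normalised reads in late libraries, against 7677 ± 1203 in early ones (log2 difference -0.72, SE 0.17, adjusted p = 0.0411). Early Lamb1 values lay within a narrow band and late ones scattered beneath it. Collagen IV was in the same list, and Col4a1, named after its values were seen, had 4117 and 3587 normalised reads at P6 and 2547 and 3108 at P10, against 1369 and 1267 at P2 and 3920.3 and 4215 at P4 and did not pass (adjusted p = 0.392). Leaving out P10 replicate 2 gave 0 higher and 7 lower, and leaving out P6 replicate 2 gave 0 higher and 4 lower. The counts were 0 higher and 0 lower without P6 replicate 1 and 0 higher and 0 lower without P10 replicate 1. Adjusted p of the called members was 0.0919 to 0.147 without any 1 early library.

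Of 20 matrix proteases and inhibitors, Mmp3, Mmp14, Mmp11, Sulf2 and Adamts4 fell (25%) and Mmp2 rose (5%). Over all tested features 2.37% fell and 3.73% rose. Mmp3, stromelysin 1, fell to 72.8 and 28.1 normalised reads at P6 and 32.9 and 45.3 at P10, against 122 and 106 at P2 and 113 and 115 at P4 (log2 difference -1.42, SE 0.28, adjusted p = 0.0305). Mmp14, the membrane-type metalloproteinase that activates the Mmp2 proenzyme, fell to 665 and 545 normalised reads at P6 and 394 and 458 at P10, against 919.6 and 1005 at P2 and 693 and 854 at P4 (log2 difference -0.76, SE 0.19, adjusted p = 0.0446). Mmp2, gelatinase A, rose to 29.7 and 23.6 normalised reads at P6 and 52.3 and 85.1 at P10, against 5.21 and 4.47 at P2 and 14.8 and 17.5 at P4 (log2 difference 2.11, SE 0.52, adjusted p = 0.0453). Its highest values were in the P10 libraries, and its P4 libraries stood above those of P2. Mmp11 fell by 1.42 (SE 0.35) on the log2 scale. Sulf2, a heparan sulfatase, averaged 70.3 ± 19.6 normalised reads in late libraries, against 150.3 ± 45.5 in early ones, and Adamts4, an aggrecanase, 198 ± 26.7 normalised reads in late libraries, against 295 ± 22.9 in early ones; both are named after their values were seen. The list had 3 higher and 13 lower without P10 replicate 2, and 1 higher and 1 lower without P6 replicate 2. Without P6 replicate 1 the counts were 0 higher and 1 lower, and without P10 replicate 1 0 higher and 0 lower. With any 1 early library left out none passed (adjusted p 0.0904 to 0.157).

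**Figure D4:**
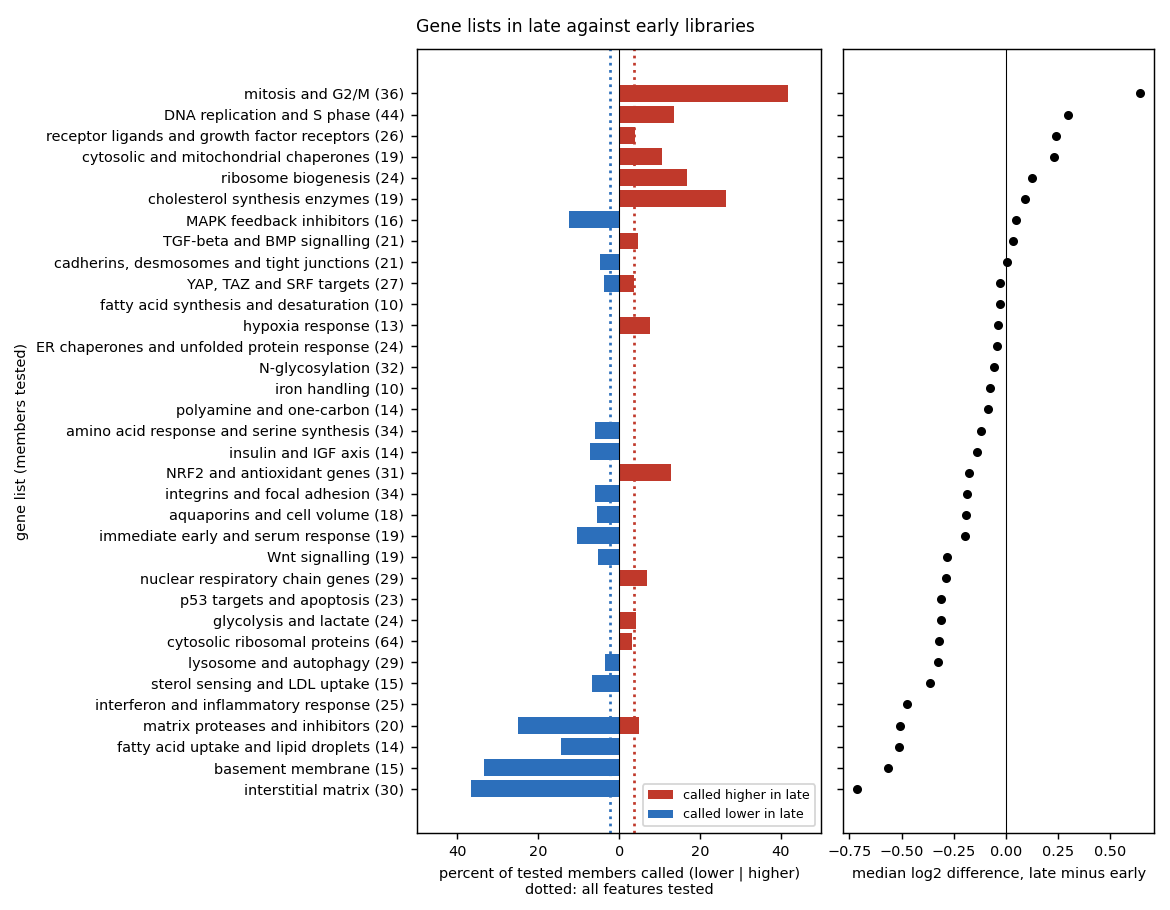
Left, the percent of tested members called higher (red, to the right) or lower (blue, to the left) in late libraries for the 34 gene lists with at least 10 tested members, with dotted lines at the shares over all tested features (3.73% higher and 2.37% lower); right, the median log2 difference of each list, late minus early. Lists run from the highest median at the top (mitosis and G2/M) to the lowest at the bottom (interstitial matrix).

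Of 34 integrin and focal adhesion genes, Itga3 and Actn4 fell (5.88%) and none rose, with a median of -0.19. Itga3, the alpha subunit of a laminin-binding integrin, fell to 497 and 324 normalised reads at P6 and 338 and 634 at P10, against 855 and 999 at P2 and 712 and 836 at P4 (log2 difference -0.97, SE 0.22, adjusted p = 0.0402). Actn4, an actin crosslinker, averaged 55.3 ± 9.46 normalised reads in late libraries, against 97.8 ± 10.4 in early ones. Itga5, the fibronectin receptor subunit, had a difference of -0.57 (SE 0.15) and missed the threshold (adjusted p = 0.0525) with no overlap between the groups. Of 21 cadherin, desmosome and tight junction genes, the desmosomal plakin Dsp alone passed (4.76%). It fell to 180.0 and 193 normalised reads at P6 and 129.9 and 103 at P10, against 363 and 390.0 at P2 and 236 and 254 at P4. Its log2 difference was -1.04 (SE 0.25), and P0 had 1295 and 989. Of 27 targets of YAP, TAZ and SRF, 1 rose and 1 fell (3.7% each, against 3.73% and 2.37% of all tested features). Srf, the serum response factor itself, rose, with 448 and 346 normalised reads at P6 and 351 and 286 at P10, against 167 and 192 at P2 and 222 and 231 at P4. Myl9, a myosin light chain, fell to 28.2 and 14.6 normalised reads at P6 and 13.5 and 15.6 at P10, against 39.6 and 38.0 at P2 and 45.5 and 35.0 at P4. They differed by 0.81 (SE 0.18) and -1.15 (SE 0.28). Cyr61, a common YAP target, had a difference of -0.61 (SE 0.20) and did not pass (adjusted p = 0.0816). None of the 5 called genes passed without P10 replicate 1 or without any 1 early library (adjusted p for the last 0.0929 to 0.146), and of them Myl9 passed without P6 replicate 1.

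Igfbp4, a secreted protein that binds insulin-like growth factors, fell to 496 and 327 normalised reads at P6 and 197 and 344 at P10, against 818 and 1084 at P2 and 667 and 859 at P4. The log2 difference was -1.38 (SE 0.26) (adjusted p = 0.0302), and P0 had 5475 and 3753. It was the only called gene among 14 tested of the insulin and IGF axis (7.14%, against 2.37% called lower over all tested features). Irs2, an adaptor of the insulin receptor, and Igf2r, the mannose 6-phosphate receptor, differed by -0.44 (SE 0.19) and -0.51 (SE 0.21) and did not pass. Of 19 immediate early genes, Fosl2 and Ier3 fell (10.5%). Fosl2, an AP-1 subunit, fell to 447 and 420.2 normalised reads at P6 and 224 and 350.4 at P10, against 642 and 736 at P2 and 598 and 671 at P4 (log2 difference -0.92, SE 0.21, adjusted p = 0.04). Fos itself had 118 and 75.3 normalised reads at P6 and 19.4 and 48.4 at P10, against 173 and 159.8 at P2 and 106 and 115 at P4 and did not pass (adjusted p = 0.0996), with 1129.8 and 1082 at P0. Of 16 feedback inhibitors of the MAPK cascade, Spry1 and Dusp6 fell (12.5%). Spry1, a sprouty protein, averaged 15.5 ± 6.93 normalised reads in late libraries, against 44.7 ± 12.8 in early ones. Dusp6, the phosphatase of ERK, fell to 419 and 219 normalised reads at P6 and 199.98 and 304 at P10, against 567 and 628 at P2 and 471 and 505 at P4. Errfi1, an inhibitor of the EGF receptor, had 278 and 372 normalised reads at P6 and 335 and 169 at P10, against 142 and 126 at P2 and 145 and 168 at P4 and missed the threshold (adjusted p = 0.0504).

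Among 26 receptor ligands and growth factor receptors, Nrg4 was the only call (3.85%, near the 3.73% called higher over all tested features). Of 21 genes of TGF-beta and BMP signalling, Skil, a SMAD corepressor, alone rose (4.76%, also near that share). It had 287 and 374 normalised reads at P6 and 328 and 209 at P10, against 172 and 169.9 at P2 and 173 and 175 at P4 (log2 difference 0.76, SE 0.19, adjusted p = 0.0445). The receptors Tgfbr1 and Tgfbr2 differed in opposite directions, by 0.52 (SE 0.14) and -0.57 (SE 0.15), without passing. Of 19 Wnt genes, the receptor Fzd7 alone passed (5.26%, against 2.37% called lower over all tested features). It fell to 14.1 and 10.1 normalised reads at P6 and 8.44 and 32.0 at P10, against 43.7 and 86.1 at P2 and 40.6 and 42.0 at P4 (log2 difference -1.76, SE 0.42, adjusted p = 0.043). Of 9 genes of natriuretic, angiotensin and relaxin signalling, Agt alone passed (11.1%). Nppa, the precursor of atrial natriuretic peptide, had 6264 and 2837 normalised reads at P6 and 2795 and 5958 at P10, against 131 and 123 at P2 and 1950.3 and 1959 at P4. The P2 libraries lay far under those of P4, and the difference of 3.05 (SE 0.92) did not pass (adjusted p = 0.0695). None of the 9 Notch genes passed, with Notch1, Notch2 and Notch3 at -0.98 (SE 0.38), -0.56 (SE 0.16) and -0.81 (SE 0.22). Of the called genes of these signalling lists, Igfbp4, Dusp6 and Agt passed without P6 replicate 1, none passed without P10 replicate 1, and none without any 1 early library (adjusted p 0.0904 to 0.152).

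Of 34 genes of the amino acid response and serine synthesis, Vldlr and Trib3 fell (5.88%, against 2.37% called lower over all tested features). Trib3, a pseudokinase induced by the transcription factor ATF4, fell to 391 and 306 normalised reads at P6 and 246 and 601 at P10, against 613 and 778 at P2 and 842 and 773 at P4 (log2 difference -1.03, SE 0.25, adjusted p = 0.0445). Vldlr, a lipoprotein receptor that ATF4 can also induce, fell to 205 and 155 normalised reads at P6 and 122 and 208 at P10, against 339.5 and 329.7 at P2 and 343 and 359 at P4 (log2 difference -1.02, SE 0.19, adjusted p = 0.0302). Ddit4, an inhibitor of mTORC1, had 11.7 and 6.74 normalised reads at P6 and 0.844 and 22.6 at P10, against 38.5 and 54.8 at P2 and 37.6 and 44.3 at P4. The difference of -2.45 (SE 0.65) missed the threshold (adjusted p = 0.0538). Of 29 genes of lysosomes and autophagy, Glb1, the lysosomal beta-galactosidase, alone passed (3.45%, against the same 2.37%). It averaged 621 ± 198 normalised reads in late libraries, against 1128 ± 92.1 in early ones (log2 difference -0.91, SE 0.21, adjusted p = 0.0411). The list's median was -0.32, and 26 of the 29 had a negative difference, against 6867 of all 13521 tested features. Psap, the precursor of saposins, had 1276 and 889.8 normalised reads at P6 and 775 and 2389 at P10, against 2458 and 3268 at P2 and 2292 and 2826 at P4, overlapping in P10 replicate 2. Without P10 replicate 2, 11 lysosomal genes were lower and none higher, and the amino acid list had 3 higher and 14 lower. Trib3, Vldlr and Glb1 missed the threshold without any 1 early library (adjusted p 0.0904 to 0.145), and also without P10 replicate 1. Glb1 missed it without P6 replicate 1 or P6 replicate 2 too. In each of those fits the amino acid list had 0 higher and 1 lower.

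Of the 41 lists, 12 had no call. Besides fatty acid synthesis, Notch signalling and 4 lists of cell type markers, they were the 24 genes of ER chaperones and the unfolded protein response (median -0.04), the 32 of N-glycosylation (-0.06), the 25 of the interferon and inflammatory response (-0.47), the 23 of p53 targets and apoptosis (-0.31), the 14 of polyamine and one-carbon metabolism (-0.09) and the 10 of iron handling (-0.08). Psmb9, an immunoproteasome subunit, had 308 and 138 normalised reads at P6 and 116 and 401 at P10, against 454 and 463 at P2 and 595 and 584 at P4 and missed the threshold (adjusted p = 0.059) without overlap. Pdia6, a disulfide isomerase of the ER, had 11531 and 6741 normalised reads at P6 and 7734 and 13121 at P10, against 14252 and 14222 at P2 and 17847 and 16138 at P4 (adjusted p = 0.0879), and Dad1, a subunit of the oligosaccharyltransferase, differed by 0.53 (SE 0.18). Mdm2, the ligase of p53, differed by 0.49 (SE 0.16), and Sms, spermine synthase, by 0.56 (SE 0.17). A p that misses the threshold does not show that these genes did not differ, and without P10 replicate 2 the interferon list had 9 genes lower and 2 higher.

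Markers of other cell types were checked in both groups. The epithelial keratins Krt8, Krt18 and Krt19 had at most 3.12 normalised reads in late libraries and 4.95 in early ones, as the highest of the 3. Epcam, below the limit for testing, had 10.9 to 16.4 in late libraries, against 5.21 to 12.8 in early ones. Cdh1, E-cadherin, had 90.0 and 50.6 normalised reads at P6 and 81.9 and 337 at P10, against 212 and 240.3 at P2 and 207 and 164 at P4 (adjusted p = 0.207). Of 8 tested mesenchymal markers, Fn1, Col1a1 and Col3a1 fell, and Vim, vimentin, outside the 4 smallest p, had 16893 to 23048 in late libraries, against 14093 to 16828 in early ones. None of the 5 tested leukocyte markers was called, and the list summed to 113 to 204 normalised reads in the 4 late libraries, against 118 to 213 in the 4 early ones. Cd14 and Tyrobp were at or near 0 in all 8 libraries. Cd68 had 44.5 to 111 in late libraries, against 40.6 to 97.9 in early ones. Ptprc had 18.0 to 29.2 against 11.9 to 20.1, and Itgax 18.6 to 32.8 against 35.8 to 78.1. Laptm5 had 3.12 to 43.8 against 2.24 to 10.5, and Fcer1g 1.12 to 11.7 against 14.0 to 19.8. The endothelial junction gene Cdh5 had at most 3.37, and none of the 4 tested endothelial markers was called. Pecam1 had 16.9 to 30.3 in late libraries, against 24.5 to 42.5 in early ones. Tek had 24.2 to 69.7 against 14.0 to 35.4, and Vwf 17.9 to 47.2 against 30.7 to 45.8. Of the ovarian granulosa genes, Fshr and Amh had 9.36 to 50.6 and 10.96 to 13.5 in late libraries, against 18.8 to 22.4 and 10.1 to 17.5 in early ones. Stab2, a scavenger receptor of sinusoidal endothelium, had 137 and 6829 normalised reads at P6 and 6604 and 8065 at P10, against 18284 and 15666 at P2 and 16165 and 28647 at P4 (adjusted p = 0.125).

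The P6 and P10 libraries were also set against the early ones separately, with the 4 early libraries shared by both. Among the falls, the log2 difference of Lum was -2.16 for P6 alone and -4.34 for P10 alone, that of Col9a3 -2.88 for P6 alone and -4.33 for P10 alone and that of Fabp4 -1.55 for P6 alone and -2.62 for P10 alone. Phactr1 and Inpp5b stood the other way round, at -5.28 for P6 alone and -2.28 for P10 alone and at -3.25 for P6 alone and -1.70 for P10 alone. Of the rises, Ccna2 stood at 1.38 for P6 alone and 1.49 for P10 alone, Kif20a at 1.17 for P6 alone and 1.21 for P10 alone and Mmp2 at 1.46 for P6 alone and 2.76 for P10 alone. The difference between P6 and P10 was not tested. With late as P6 alone 4316 features passed, 14.9% of those tested as higher and 17% as lower, and with P10 alone 270 passed, 0.998% in each direction.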

How the data were processed

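RNA of CHO-K1 cells was measured in 2 libraries per passage. Per the labels' protocols, TRIzol extracts were depleted of rRNA (Ribo-Zero) and made into stranded TruSeq libraries; the design text names the MiSeq. The authors deposited 1 signal value per feature and library, normalised with DESeq per the submitters' processing notes. The sources used here name no aligner, counting rule, strand setting, build or annotation, so antisense and overlapping genes may share reads. Of 83 called genes under the naming rule below, 79 matched 1 gene of RefSeq's CriGri-PICRH-1.0, and 28 of those overlapped another model there (Ccna2 with Exosc9, Kif20a with Cdc23). Of 20050 features given as numbers, 16386 were named from that table.

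The main test was limma 3.58.1 (R 4.3.3), trended, on log2(value + 1) of the 8 libraries with 2 means, two-sided, Benjamini-Hochberg over 13521 features at 0.05. Log2 differences are late minus early; ± is the SD of 4 libraries. A called gene is one past that threshold. The deposited values are whole multiples of a step in each column, within 0.000794 reads, and dividing by it gave reads for edgeR 4.0.16 and DESeq2 1.42.0; for P4 replicate 1 the step (0.989) was too near 1 for an automatic check, so both alternatives rest on that reading. The fit was also run on simulated data, in which each gene had the same dispersion in late and early libraries. That setting leaves out the wider spread of the late libraries, so nothing is drawn from it here. The comparison, the gene lists and the alternatives were chosen with earlier results of these data known. Named genes are the 12 largest rises and falls, up to 4 members with the smallest p of each of 41 lists, and Igfbp4, Aqp1 and Dym; others are said to be outside this rule or complete a list of called members. Some genes under these rules are not reported here. A further 5 lists were written after values were seen. Alternatives changed the pseudocount, filter, scaling, tool, weights, block and libraries. Depths are given in the report; counting error at low reads is part of the spread.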

Additional observations from a re-analysis of the deposited data

Results flagged for a closer look

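In 366 groups of 4 libraries the gap between the highest or lowest library and the others was set against the group's range, and in 23 it exceeded Dixon's 95% critical value for 4 values; chance flags about 1 in 20 such groups. All values are normalised reads unless stated, and none was weighed further.

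Among late libraries, P10 replicate 1 stood high in Cdt1 (210.1), Gnl3 (4368.4), Hspa4 (4090.8) and Nop58 (4512.7). P10 replicate 2 stood high in Rn5-8s (225.5, with the others at 21.1 to 27.8) and low in Stt3a (3147.4). P6 replicate 1 stood low in Amh (11) and Stab2 (136.9, with the others at 6603.7 to 8064.7). P6 replicate 2 stood high in Tek (69.7).

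Among early libraries, P2 replicate 2 stood high in Col6a1 (6357.8), Fzd7 (86.1), Npr2 (141.9) and Rna28s1 (239094.0, with the others at 11000.6 to 13514.4), and low in Bnip3 (509.6) and Stip1 (1604.8). It also stood high in the share of reads on the feature Rn18s, at 0.0464%, with the others at 0.000635 to 0.000858%. P2 replicate 1 stood high in Epas1 (75.0) and Sel1l (1585.1) and low in Elovl1 (630.1). P4 replicate 1 stood high in Hfe (249.4). P4 replicate 2 stood high in Fdft1 (1505.8) and low in Tfrc (326.3) and Tgfbr1 (410.3).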

How the results depend on the processing

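Over 8 libraries 824 features passed. Near that count were 1 mean per passage over all 10 libraries (1100), edgeR (892, of which 790 were among the 824), pseudocounts of 0.5 (815) and 5 (842), a mean of at least 50 (837) and upper quartile scaling (808). DESeq2 called 2348 (815 of the 824) and array weights 4291. DESeq2 gave no adjusted p for Abca4, which is among the largest falls, and its log2 difference there was -4.10. With no filter 0 of 21531 features passed in limma (unadjusted p under 0.05 for 4745; lowest adjusted p 0.0572). With late as P6 alone 4316 passed (806 of the 824), with P10 alone 270 (179), with early as P2 alone 6 and with P4 alone 0 (unadjusted p under 0.05 for 1771 in limma). Without P6 replicate 2 and P10 replicate 1 together 275 passed (242). Leaving out 1 library gave from 0 (each of the 4 early libraries) to 6003 (P10 replicate 2); where limma gave 0, edgeR and DESeq2 were not run. The cause of these moves was not tested, and the fits that leave libraries out also hold fewer of them.

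With the replicate block 366 features passed, all among the 824. Deviations from the passage mean of libraries with the same number correlated between -0.67 and 0.225. With 2 libraries per passage, such correlations cannot show whether libraries with the same number belong together. Of the 180 genes under the naming rule, none of the 83 called ones changed direction under any alternative run, and of the 97 others 8 did under at least 1 (Amh, Cd68, Fshr, Ftl, Inha, Laptm5, Ocln and Vwf). A called gene without overlap could not change direction in the fits that only leave libraries out. Among called genes given in the text, upper quartile scaling also ended the call of Gmps (limma, adjusted p = 0.0528). List medians changed sign with upper quartile scaling for cadherins, desmosomes and tight junctions (0.01 against -0.04) and for TGF-beta and BMP signalling (0.04 against -0.01). Array weights gave P10 replicate 2 a weight of 0.198, P6 replicate 2 0.305 and P10 replicate 1 0.541, and the other libraries 1.29 to 3.49. With 4 libraries a side and unequal duplicates, a gene that missed the threshold may still differ, and genes with few reads were the least certain.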

Other observations

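The gene groups in this section were put together after the values were seen and are given as values; over all tested features 3.73% were called higher and 2.37% lower. Of 21 tested genes of condensin and cohesin, the ring complexes that compact and hold sister chromatids, 8 rose (38.1%) and none fell; the median log2 difference was 0.65. Smc3, a cohesin ring subunit, had 7411 and 8089.9 normalised reads at P6 and 11554 and 4613 at P10, against 3503 and 2653 at P2 and 3262 and 2929 at P4. Smc4, of condensin, had 5006 and 6651 normalised reads at P6 and 10014 and 4002 at P10, against 3164 and 2575 at P2 and 2509 and 2339 at P4. Esco2, which acetylates cohesin in S phase, averaged 2062 ± 660.2 normalised reads in late libraries, against 889 ± 74.4 in early ones, and Sgol1, shugoshin, 518 ± 179 normalised reads in late libraries, against 247 ± 17.4 in early ones. All 4 were lowest among late libraries in P10 replicate 2 and above every early library there. The list had 15 higher and 1 lower without P10 replicate 2 and 5 higher and 0 lower without P6 replicate 2, and without P6 replicate 1 or P10 replicate 1 it had 1 higher and 0 lower.

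Of 23 genes of purine and pyrimidine synthesis, 5 rose (21.7%) and none fell, while the median was -0.02. Uck2, which salvages uridine and cytidine, had 1175 and 874 normalised reads at P6 and 1458 and 892 at P10, against 419 and 387 at P2 and 425 and 436 at P4 (log2 difference 1.37, SE 0.17, adjusted p = 0.0203). Umps, which makes uridine monophosphate, averaged 1633 ± 372 normalised reads in late libraries, against 802 ± 59.5 in early ones. Prps1, which makes the shared precursor phosphoribosyl pyrophosphate, rose by 1.07 (SE 0.19) on the log2 scale. Ppat and Gmps, of purine synthesis, rose by 0.65 (SE 0.12) and 0.64 (SE 0.16). P0 values of Uck2 (443 and 431) were near the early ones. Without P10 replicate 2 the list had 6 higher and 7 lower. It had 4 higher and 0 lower without P6 replicate 2, and 3 higher and 0 lower without P6 replicate 1 or without P10 replicate 1.

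On the lower side, 4 of 15 complement genes fell (26.7%) and none rose. C1s, a protease of the classical pathway, fell to 2613 and 1599.8 normalised reads at P6 and 1478 and 2630.0 at P10, against 4616 and 4315 at P2 and 3893 and 3681 at P4. C7, a part of the membrane attack complex, fell to 182 and 186 normalised reads at P6 and 86.1 and 78.8 at P10, against 482 and 554 at P2 and 280.0 and 279.7 at P4, with 61.0 and 61.8 at P0. Complement genes had 3 higher and 7 lower without P10 replicate 2, 1 higher and 4 lower without P6 replicate 2, 0 higher and 1 lower without P6 replicate 1 and 0 higher and 0 lower without P10 replicate 1.

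Of 29 genes of fatty acid oxidation, 5 fell (17.2%) and none rose. Among the 5, Hadh of mitochondrial beta-oxidation differed by -1.10 (SE 0.22) on the log2 scale, the carnitine octanoyltransferase Crot by -0.66 (SE 0.17) and Pex11a, of peroxisome division, by -0.77 (SE 0.19). This list had 2 higher and 12 lower without P10 replicate 2 and 0 higher and 2 lower without P6 replicate 2, and 0 higher and 0 lower without P6 replicate 1 or without P10 replicate 1. Shares without P10 replicate 2 stand against 21.2% higher and 23.2% lower of all tested features. Without P6 replicate 1, 36 of all 13521 features were higher and 66 lower, and without P10 replicate 1, 32 and 24. None of the called genes of the 4 groups passed without any 1 early library (adjusted p 0.0904 to 0.155).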
